A study of Homo sapiens with 4 samples.

Results

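The immunoglobulin heavy and light chain genes were described in human myeloma cells exposed to OSSL_325096, for which only the code name is used here. The members are all rows of the gene table whose symbol names a heavy chain V, D or constant gene, a kappa V, J or constant gene, or a lambda V, J or constant gene. They are 393 of 57773 genes, of which 196 are heavy chain, 105 kappa and 92 lambda genes. KMS12PE and KMS11 are established multiple myeloma lines, each treated with 1 µM OSSL_325096 or with the solvent DMSO and sequenced once per treatment. There were therefore 4 libraries, 2 per treatment, and the 2 libraries of a treatment came from different lines. The labels give no length of exposure. The data are the authors' deposited table of their comparison over both lines. For each gene it lists the RPKM mean of whichever treatment had more (read counts scaled to transcript length and library size), beside a log2 fold change with its p-value. In bulk RNA, fewer cells that express a gene and less of its RNA per cell cannot be told apart. Positive fold changes mean higher with OSSL_325096, from the order of the treatments in the table's title.

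An antibody is built from heavy chains and from light chains of either the kappa or the lambda type. In each B cell lineage a V segment is joined to a J segment, with a D segment between them in the heavy chain, and the joined exon is spliced to a constant region gene. The constant gene gives the class: mu, delta, gamma, alpha or epsilon. Myeloma is a malignancy of plasma cells, the antibody-secreting end of the B cell lineage, and a myeloma clone carries its own rearrangements. V segments of one family are close in sequence, so reads of near-identical segments may be shared between them.

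Of the 393 members, 348 were listed at 0 RPKM in the authors' deposited table, 34 lay above 0 and under 1 RPKM, and 11 reached 1 RPKM. The 11 held 6 kappa genes, 4 heavy chain genes and 1 lambda gene. All 37 heavy chain D segments, all 5 kappa J segments and all 7 lambda J segments were at 0. Many of these regions are very short, such as IGHD7-27 (chromosome 14, 106331761 to 106331771) and IGKJ1 (chromosome 2, 89161398 to 89161435). The counting rule is not stated, so a 0 there does not show that no message used the segment. A single gene made up most of each class. IGKV3-15 was 90.8% of the summed RPKM of the kappa V segments, IGHV3-7 was 99.3% of the heavy chain V segments, IGHD was 99.8% of the heavy chain constant genes and IGLC1 was 99.9% of the lambda constant genes. These sums add the higher group mean of each gene, which is the OSSL_325096 mean for some genes and the DMSO mean for others.

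IGKV3-15, a kappa V segment (chromosome 2, 89384673 to 89385283, minus strand, hg19), had 4178 RPKM in the authors' deposited table and was the gene with rank 2 of the whole table. IGKC, the kappa constant gene (chromosome 2, 89156674 to 89157196, minus strand), had 3332 RPKM there and rank 5. IGHD, the constant gene of the delta heavy chain of IgD (chromosome 14, 106303099 to 106312010, minus strand), had 1043 RPKM there and rank 22. The level of IGKV3-15 was 1.25 times that of IGKC. IGHV3-7, a heavy chain V segment (chromosome 14, 106518400 to 106518932, minus strand), had 818 RPKM in the authors' deposited table. IGLC1, a lambda constant gene (chromosome 22, 23237555 to 23238014, plus strand), had 646 RPKM there. IGKV1-37, another kappa V segment (chromosome 2, 89597021 to 89597542, minus strand), had 368 RPKM there. The next 5 members were far lower, with IGKV1D-37 at 25.0 RPKM, IGKV3D-15 at 21.1, IGKV3-11 at 6.08, IGHV3-73 at 2.39 and IGHA2 at 1.02 in the authors' deposited table. Just under 1 RPKM lay a segment of the IGHV3 family at 0.849 and IGHV4-34 at 0.682.

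**Figure D1:**
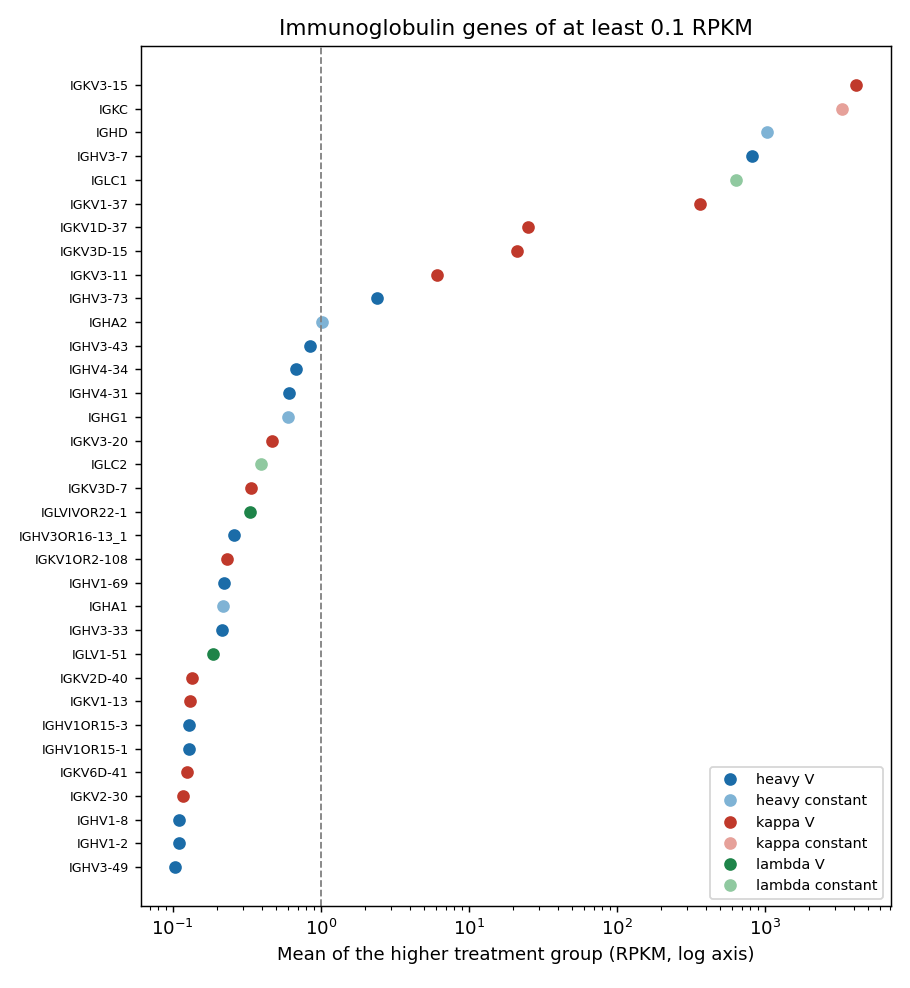
Mean RPKM of the higher treatment group (horizontal log axis) for the 34 immunoglobulin genes of at least 0.1 RPKM, coloured by chain and segment, with a dashed line at 1 RPKM. The 6 highest genes run from 368 to 4178 RPKM, and 11 genes lie to the right of the line.

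The lambda genes differed from the kappa genes in what accompanied the constant gene. The 76 lambda V segments summed to 0.618 RPKM in the authors' deposited table, with none at 1 RPKM, beside 646 RPKM of IGLC1. The 99 kappa V segments summed to 4600 RPKM beside 3332 RPKM of IGKC there. IGLC1 lies inside the region of IGLL5 (chromosome 22, 23229960 to 23238287, plus strand), a gene related to the surrogate light chain that uses the same last exon. IGLL5 had 361.5 RPKM in the authors' deposited table, and the sources used here do not say how reads of the shared exon were divided between IGLC1 and IGLL5. The other lambda constant genes were far lower, with IGLC2 at 0.393 and IGLC3 at 0.0997 RPKM there. The coding sequences of IGLC2 and IGLC3 are 95.3% and 95.6% identical to that of IGLC1, with a longest shared run of 90 bases for each. IGKC in turn lies inside AC096579.7, an unnamed gene model on the same strand (725 RPKM).

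The heavy chain constant genes were led by IGHD alone. In the authors' deposited table the other genes of this kind were IGHA2 at 1.02, IGHG1 at 0.601, IGHA1 at 0.220, IGHE at 0.0852, IGHM at 0.0631, IGHG4 at 0.0415, IGHG2 at 0.0359 and IGHG3 at 0.0321 RPKM. IGHM encodes the mu chain, which in mature B cells is made by alternative splicing from the same long transcript as delta. IGHA1 and IGHA2 encode the alpha chains of IgA, and their coding sequences are 93.6% identical. The gamma, alpha and epsilon constant genes are used after class switching.

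Immunoglobulin V promoters are known for the octamer element, which binds the POU factors OCT1 and OCT2. The octamer was searched as ATTTGCAT and its reverse complement ATGCAAAT in the 250 bases before the first coding base on GRCh37, the sequence of hg19. It was present before 109 of 134 V segments with an annotated coding sequence (81.3%), and before 202 of 19581 other genes (1.03%). The windows were set by the coding start and not by the transcription start, so they need not cover the promoters of the other genes. The 7-base core, TTTGCAT or ATGCAAA, which lies within every octamer, was present before 121 of the 134 (90.3%) and before 3.13% of the other genes. The 8 segments of the IGKV3 family, to which IGKV3-15 belongs, all had the core and none had the full octamer, while 17 of 20 IGKV1 segments and 18 of 21 IGHV3 segments had the full octamer. The full octamer was present before 86 of 105 V segments at 0 RPKM (81.9%), before 23 of 29 above 0 RPKM (79.3%) and before 4 of 7 of at least 1 RPKM. The core was present before 92 (87.6%), all 29 and all 7 of these.

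The windows of 5 of the 7 V segments of at least 1 RPKM are shown, because they carry the element in different forms. The distal copies IGKV1D-37 and IGKV3D-15 are left out. Each is written 5′ to 3′ along the gene, with the octamer or its core in capitals.
IGKV3-15: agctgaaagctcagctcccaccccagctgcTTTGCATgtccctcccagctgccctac
IGKV3-11: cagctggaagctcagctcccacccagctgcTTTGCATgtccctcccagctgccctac
IGKV1-37: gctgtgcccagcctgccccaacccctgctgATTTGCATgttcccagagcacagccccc
IGHV3-7: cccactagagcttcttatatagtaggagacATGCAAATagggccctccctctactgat
IGHV3-73: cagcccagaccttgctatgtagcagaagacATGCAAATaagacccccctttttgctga
They are chr2:89385260-89385316, chr2:89327255-89327311, chr2:89597563-89597620, chr14:106518959-106519016 and chr14:107211499-107211556, all on the minus strand. In the kappa segments the element reads TTTGCAT or ATTTGCAT and ends 93 bases (IGKV3-15, IGKV3-11) or 87 bases (IGKV1-37) before the first coding base. In the heavy chain segments it reads ATGCAAAT, the opposite orientation, and ends 125 bases (IGHV3-7) or 127 bases (IGHV3-73) before it. The matches are descriptions of the reference sequence, and binding was not measured.

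Many kappa V segments exist as a proximal copy and a distal copy, whose symbol carries a D. The table holds 33 such pairs, and in 23 of them both copies were at 0 RPKM. In 2 pairs both copies reached 1 RPKM. In these the copies differ by 1 base (IGKV3-15 and IGKV3D-15) or by none (IGKV1-37 and IGKV1D-37) over the V exon of 296 bases. The exon of the identical pair is shown because 1 sequence stands for both copies.
IGKV1-37: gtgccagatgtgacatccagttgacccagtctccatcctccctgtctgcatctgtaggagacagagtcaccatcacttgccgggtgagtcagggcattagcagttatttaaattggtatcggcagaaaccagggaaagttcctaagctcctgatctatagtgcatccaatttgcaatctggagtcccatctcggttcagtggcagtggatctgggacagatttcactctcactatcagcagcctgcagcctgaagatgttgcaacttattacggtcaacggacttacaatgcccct
It is chr2:89597021-89597316 on the minus strand of GRCh37. IGKV3-15 and IGKV3D-15 are 99.7% identical over their coding sequence, and IGKV1-37 and IGKV1D-37 are identical over all 351 coding bases. The authors' deposited table nevertheless set the copies far apart, IGKV3-15 at 198 times the RPKM of IGKV3D-15 and IGKV1-37 at 14.7 times that of IGKV1D-37. IGKV3-11 and IGKV3D-11, 98.6% identical, stood at 6.08 and 0.0846 RPKM there. The sources used here do not say how reads that match both copies were assigned, so the separate values of the copies are uncertain.

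The table has no columns of single libraries, but its group means carry them. The mean RPKM of 2 libraries is a sum of whole reads, each divided by its library's total, and the table prints it to at most 10 significant digits, with fewer for low values. Genes with 1 read in all gave the total of each library to the single read. The OSSL_325096 libraries held 13363781 and 10852568 counted reads, and the DMSO libraries 12295104 and 11004435. With these totals, 96.2% of 2399 genes with a single annotated transcript and a fold change at least 0.05 from 0 on the log2 scale gave whole reads in both libraries of their higher group. The 2399 include the genes with 1 read that set the totals, so this share is not an independent check. The labels do not say which of a treatment's libraries is the deeper, so the libraries are named by depth and not by line. Of the 45 members above 0 RPKM, 31 had such a transcript, 29 gave 1 solution and 2 gave several. Only the higher group can be read in this way, since the table does not give the mean of the other.

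The most abundant genes with 1 solution were read almost wholly in 1 library of their higher group. IGHV3-7 had 7743 reads in the shallower DMSO library (1636 RPKM) and 1 read in the deeper one (0.189 RPKM). IGLC1 had 6425 reads in the shallower OSSL_325096 library (1287 RPKM) and 26 in the deeper (4.23 RPKM). IGKV1-37 had 3603 reads in the deeper DMSO library (736 RPKM) and 0 in the shallower. By counting error alone, 0 reads allow an expected count of up to 3 (upper 95% limit), here 0.685 RPKM. The same limit is used for each 0 below. IGLC1 was read in the OSSL_325096 libraries, which are not matched by line to the DMSO libraries. Within DMSO, the strong library was the shallower one for IGHV3-7 and the deeper one for IGKV1-37. IGKV1D-37, its distal copy, had 217 reads in the same library as IGKV1-37 and 0 in the other, which allows up to 0.772 RPKM. IGHV3-73 had 23 reads in the shallower DMSO library, where IGHV3-7 was high, and 0 in the deeper, which allows up to 0.558 RPKM. For IGKV3-15 the only solution was 49338 reads in the deeper OSSL_325096 library (8353 RPKM) and 11 in the shallower (2.29 RPKM). At so many reads the printed digits would admit 0.568 accidental solutions on average if the length were wrong, against 0.00983 or fewer for the other members with 1 solution. IGKC and IGHD gave 2 and 3 solutions and could not be settled.

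Of 8 members with 1 solution and at least 20 reads, 6 had at least 95% of their RPKM in 1 library. Among 262 other genes with 1 solution and at least 20 reads this held for 46 (17.6%), and their median share in the higher library was 72.9%. Those 262 also had to have a fold change at least 0.05 from 0 on the log2 scale. The members had no such limit, and IGKV1D-37 (-0.028), among the 6, would not pass it. The 6 include IGKV3-15, whose only solution is less certain, with 0.568 accidental solutions on average if its length were wrong. The 6 members need not be independent. They include a proximal and a distal kappa copy with identical coding sequences, both read in the same library. The heavy chain V segments among them are of 1 family and were strong in the same library. Their coding sequences are 85.2% identical, with a longest shared run of 34 bases. Whether these members shared reads was not tested, so the shares are descriptions. The exceptions among the 8 members were IGKV3-11 and IGHA2. IGKV3-11 had 44 reads in the deeper and 16 in the shallower OSSL_325096 library (exact Poisson 95% intervals 32.0 to 59.1 and 9.15 to 26.0). IGHA2 had 17 and 10 reads (9.90 to 27.2 and 4.80 to 18.4). These intervals cover counting error only. In the deeper OSSL_325096 library IGKV3-11 had 0.0892% as many reads as IGKV3-15, while in the shallower one it had more reads than IGKV3-15, 16 against 11.

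**Figure D2:**
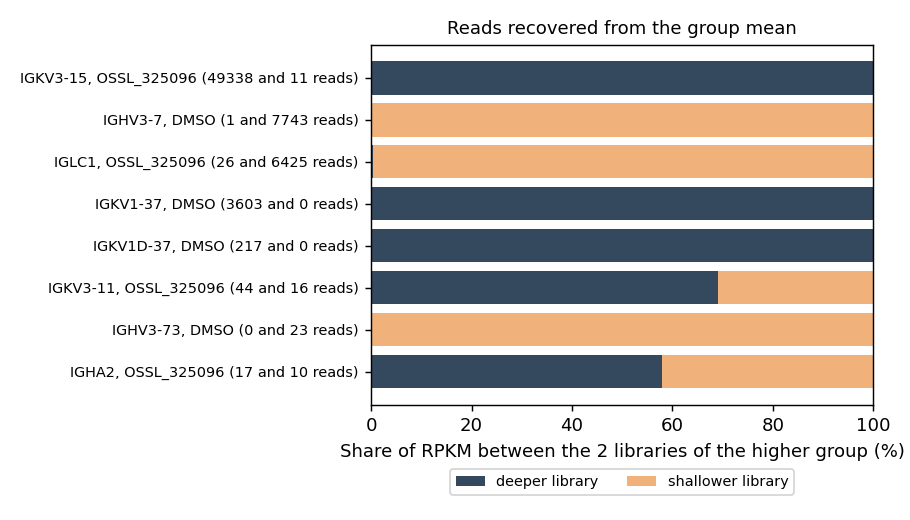
Share of RPKM between the deeper (dark) and shallower (orange) library of the higher treatment group, for the 8 immunoglobulin genes with 1 solution and at least 20 reads, with the group and the reads of each library beside the symbol. Of the bars, 6 are nearly of a single colour, and IGKV3-11 (44 and 16 reads) and IGHA2 (17 and 10 reads) are divided. The solution of IGKV3-15 is the least certain of the 8.

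Among the 11 immunoglobulin genes of at least 1 RPKM, 0 passed a correction for multiple tests. By the authors' p-values, 0 had an unadjusted p under 0.05 (beside 0.0442% of all 11324 genes of at least 1 RPKM), and 0 had a Benjamini-Hochberg adjusted p under 0.05 (0.0% of those genes). The smallest unadjusted p among the 11 was 0.344, of IGKV3-11, in the authors' deposited table. By size alone 3 were at least 1.5-fold higher with OSSL_325096, beside 4.95% of all genes of at least 1 RPKM, and 0 were at least 1.5-fold lower, beside 4.95%. The minimum was set on the higher group. IGHA2, at 1.02 RPKM and 1.91-fold higher with OSSL_325096, passed it only through the OSSL_325096 mean and so is no support for a rise. With a minimum of 5 RPKM the count was 2. The median log2 fold change of the 11 was 0.35 (quartiles -0.13 and 0.73), and that of all genes of at least 1 RPKM was 0.0087 (quartiles -0.21 and 0.22). These counts are descriptions, since members share loci and may share reads.

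The 6 genes of at least 100 RPKM lay within 1.5-fold of no difference. In the authors' deposited table the kappa genes IGKV3-15 and IGKC had log2 fold changes of 0.53 (implied SE 1.97) and 0.45 (1.95). The implied SE is the standard error at which a two-sided normal test of that fold change would return the deposited p-value. The 2 libraries of a treatment came from different lines, so it does not measure replicates of 1 line. The heavy chain genes IGHV3-7 and IGHD had -0.15 (implied SE 1.92) and -0.10 (2.05) there. IGLC1 had 0.35 (implied SE 1.52) and IGKV1-37 had -0.22 (1.77) in the authors' deposited table. Each of these fold changes was smaller than 1 implied SE.

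The 3 members past 1.5-fold were all below 25 RPKM. IGKV3-11 had a log2 fold change of 1.81 (implied SE 1.91), IGKV3D-15 had 1.41 (2.14) and IGHA2 had 0.93 (1.74) in the authors' deposited table. Their fold changes were also smaller than 1 implied SE. The copies of the IGKV3-15 pair had 0.53 and 1.41 there, and those of the IGKV1-37 pair -0.22 and -0.028. IGHV3-73 had -0.43 (implied SE 2.08).

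**Figure D3:**
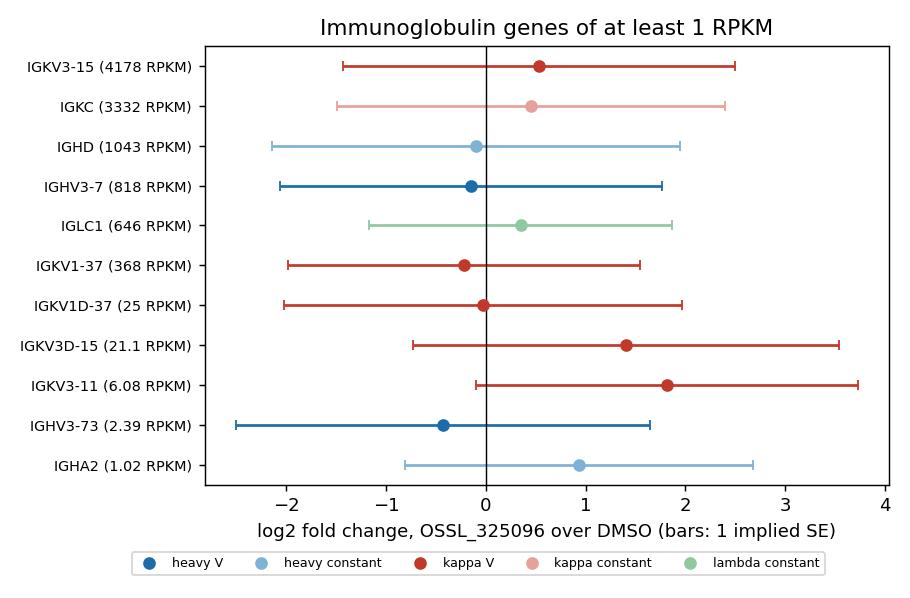
Difference between OSSL_325096 and DMSO on the log2 scale (horizontal axis, positive is higher with OSSL_325096) for the 11 immunoglobulin genes of at least 1 RPKM, ordered by RPKM from the top, with bars of 1 implied SE. Every bar crosses 0, and IGKV3-11 at 1.81 is the farthest point from it.

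The implied SEs of these genes were large beside those of all genes of at least 1 RPKM. They are not a spread among replicates of 1 line, since the 2 libraries of a treatment came from different lines. Differences between the lines cannot be separated from them. All 11 had an implied SE of at least 1.5, against 21.8% of the other genes of at least 1 RPKM, and their median was 1.95 against 1.10 for all genes of at least 1 RPKM. With an implied SE at the members' median, a p of 0.05 by a normal test corresponds to a difference of 14.1-fold. Of the 394 genes of at least 100 RPKM, whose median implied SE was 1.01, IGHD had the largest. IGKV3-15, IGKC, IGHV3-7, IGKV1-37 and IGLC1 had ranks 4, 5, 7, 11 and 13 among them. The members under 100 RPKM were not compared with genes of like level. Values of each line on its own were not analysed here.

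**Figure D4:**
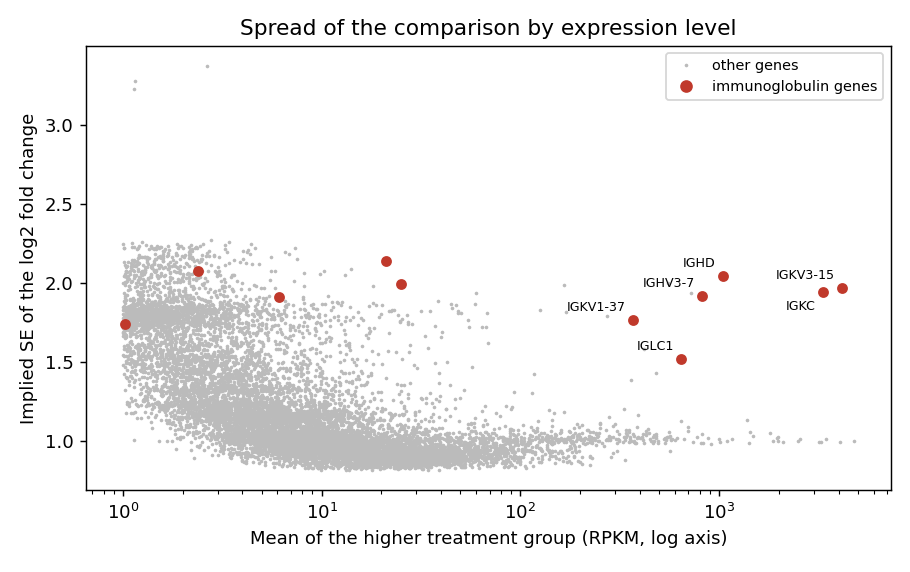
Implied SE of the log2 fold change against the mean RPKM of the higher group (log axis) for genes of at least 1 RPKM, with the 11 immunoglobulin genes in red and the 6 of at least 100 RPKM named. Most genes of at least 100 RPKM lie near 1.01, and the named genes lie between 1.52 and 2.05.

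Of the 34 members above 0 and under 1 RPKM, 21 gave 1 solution. Each of these 21 had under 10 reads in its higher group, and 11 of them had a single read. The reads of the others, IGHG1 among them, could not be solved. Over all 45 members with a fold change, 14 were higher by 1.5-fold or more and 17 lower, beside 19.8% and 18.0% of all 23130 genes with a fold change. None of the 45 had an unadjusted p under 0.05, beside 0.0389% of those genes. Of these members, 9 shared a log2 fold change of -2.31 and a p of 0.463 to the last digit. The same fold change was listed for 681 genes of the authors' deposited table, these 9 included, and the p-values of the others were not compared. The 6 of these 9 members that could be solved had a single read, in the shallower DMSO library. IGHV4-31 had the lowest value of any member, a log2 fold change of -4.63 (implied SE 3.12, unadjusted p = 0.138) in the authors' deposited table. It rested on 3 reads in each DMSO library and was chosen for mention after its value was seen, as were IGHV4-34 and IGKV3D-7. IGKV3D-7 had the highest value, 3.71 (implied SE 3.05) there, on 1 and 2 reads in the OSSL_325096 libraries.

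Low constant genes gave values of the same kind. In the authors' deposited table IGHM had 0.85, IGHG1 0.61 and IGHA1 -0.52, with implied SEs of 1.89, 2.13 and 1.71. IGHG4 had 2.33 and IGHG2 and IGHG3 each had -2.31 there, with implied SEs of 3.17 and 3.15. IGHE (-0.0013) and IGLC3 (0.0017) were listed close to 0, and IGLC2, on 4 reads in the shallower DMSO library, at -1.77 (implied SE 1.83). IGKV3D-11, the distal partner of IGKV3-11, had 2.33 (implied SE 3.17).

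Genes that serve antibody production were divided evenly in direction. Of 54 genes in 5 lists, 40 reached 1 RPKM, with 19 above and 21 below 0 and a median log2 fold change of -0.014. At 1.5-fold, 2 of the 40 were higher and 2 lower, beside 4.95% and 4.95% of all genes of at least 1 RPKM. By the authors' p-values 0 had an unadjusted p under 0.05, beside 0.0442% of all genes of at least 1 RPKM. After Benjamini-Hochberg adjustment 0 had a p under 0.05, beside 0.0% of those genes. Among partners of the chains, IGJ, the joining chain of polymeric antibodies (386 RPKM), had -0.28 (implied SE 1.09) in the authors' deposited table. MZB1, an endoplasmic reticulum helper of heavy chain assembly (189 RPKM), had 0.53 (1.05), and IGLL5 had 0.43 (1.39) there. IGLL1, the lambda-like part of the surrogate light chain of precursor B cells, was at 50.1 RPKM with 0.39 (implied SE 1.81), and CD79A, a signalling chain of the B cell receptor, was at 18.3 RPKM with 0.039 (1.71). The chains' partners included VPREB1, which pairs with IGLL1, and PIGR, the transport receptor of polymeric antibodies, both listed at 0 RPKM in the authors' deposited table.

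Among 13 factors that act on the loci, 9 reached 1 RPKM. Of these 9, 1 was at least 1.5-fold lower and 0 higher, beside 4.95% and 4.95% of all genes of at least 1 RPKM. IRF4, a plasma cell transcription factor that binds light chain enhancers (174 RPKM), had -0.67 (implied SE 1.03) in the authors' deposited table. Those that bind the octamer or assist there were POU2F1 (OCT1, 4.50 RPKM, log2 fold change -0.10), POU2F2 (OCT2, 0.426 RPKM, -0.28) and the coactivator gene POU2AF1 (26.0 RPKM, -0.0064). XBP1 and TCF3, which encodes the E2A proteins that bind immunoglobulin enhancers, had 180 and 60.0 RPKM with -0.021 and 0.49 there. The recombination genes were low, with RAG1 at 0.0645, RAG2 at 0.0116 and DNTT at 0 RPKM, while the repair enzyme gene UNG had 25.7 RPKM (-0.24) and the end-processing nuclease gene DCLRE1C had 2.90 RPKM (-0.34). Of 8 genes of chain mRNA processing, 0 were 1.5-fold higher or lower, beside the same 4.95% and 4.95%. Among them ELL2, an elongation factor used for the secreted form of the heavy chain message, had -0.30 (implied SE 0.92). HNRNPF at 68.8 RPKM had 0.070, SNRPA at 35.3 RPKM had 0.018 and HNRNPLL, a splicing regulator of plasma cells, had -0.40 in the authors' deposited table.

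Folding and assembly genes were high, with 16 of 17 at 1 RPKM or more and a median of 0.010. SDF2L1 (114 RPKM), a component of the lumenal chaperone complex, had 0.98 (implied SE 0.89) in the authors' deposited table, and HSPA5, the heavy chain binding protein BiP (209.7 RPKM), had 0.77 (1.01). DNAJB9, a BiP co-chaperone of degradation (20.6 RPKM), had -0.63 (1.13) there. TXNDC5 and CALR, the highest of this list at 482 and 468 RPKM, had -0.20 and 0.47. Markers of plasma cells were present in all 8 of 8 genes, from 6.26 RPKM of SLAMF7 to 189 of MZB1. Of these 8, 1 was higher by 1.5-fold (SDC1, 0.60) and 3 lower (TNFRSF17 at -0.66, CD38 at -0.73 and IRF4), beside 4.95% and 4.95% of all genes of at least 1 RPKM. None had an unadjusted p under 0.05, beside 0.0442% of all genes of at least 1 RPKM. The part of these markers in the immunoglobulin values was not tested. Of 5 B cell markers, 1 reached 1 RPKM (CR2, at 1.82), and MS4A1, the gene of CD20, was at 0. The 4 markers of T and NK cells and the 4 of myeloid cells were all at 0.130 RPKM or less in the authors' deposited table.

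**Figure D5:**
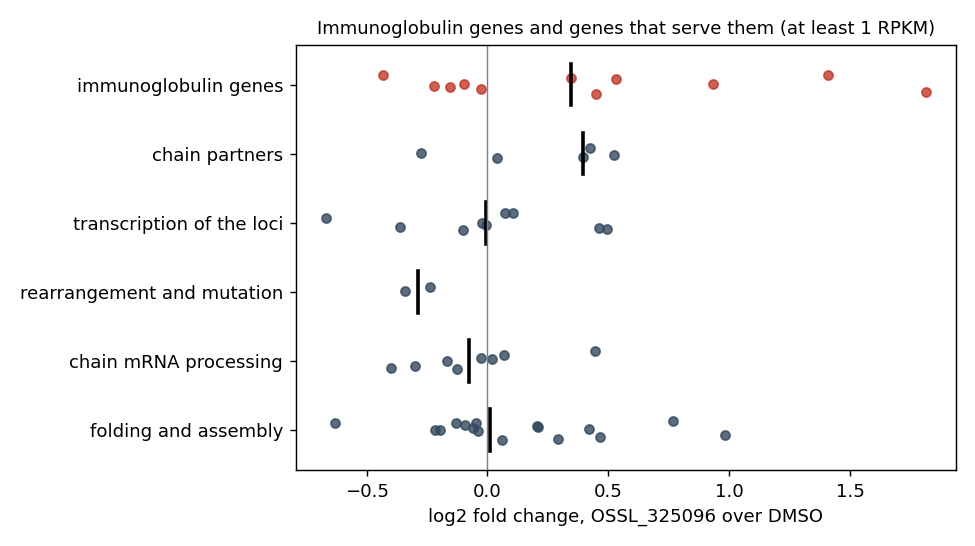
Difference between OSSL_325096 and DMSO on the log2 scale (horizontal axis) for the 11 immunoglobulin genes (red) and the genes of 5 lists that serve them (dark), all of at least 1 RPKM, with medians as black bars and a vertical scatter that only separates points. The immunoglobulin genes span -0.43 to 1.81 and the other genes span -0.67 to 0.98.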

How the data were processed

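RNA of 4 libraries was sequenced after capture with oligo(dT) beads and random priming, per the labels' protocols. Reads were mapped to hg19 and compared in Biomedical Genomics Workbench 5, per the series' design text. No counting rule, annotation or statistical model is stated in the labels. The authors deposited a single table with 6 measures per gene: the RPKM of the group with the higher mean, a log2 fold change, the same fold as a signed score, and p-values (unadjusted, false discovery rate, Bonferroni). It holds 0 columns of single libraries, so the planned fits of single libraries were not made.

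The main analysis took the 11324 genes that reached 1 RPKM in their higher group, and p-values were adjusted over them by Benjamini-Hochberg. The deposited false discovery rate was 0.999995 for every gene with one. Whole reads were solved from each group mean within 0.6 units of the last of 10 significant digits, with at most 9 decimals, with exon lengths from GENCODE 44 on GRCh37 for genes with 1 transcript and the table's own coordinates. Library totals and solutions were tested on simulated data. The outcome is not given here, and it is not taken as a check on the solutions of members with many reads. The 4 totals run from 10852568 to 13363781 reads, and 1 read is worth 0.0748 to 0.0921 RPM. Nothing in the labels says that libraries came from separate cultures. Sequences were read from GRCh37. Some list genes and sequences are not reported here. Python 3.11.15, pandas 2.3.3, numpy 2.4.6 and scipy 1.17.1 were used. Members and lists were chosen with earlier results of these data known. Named were all constant genes with a fold change, V segments of at least 5 RPKM, the 6 highest and 6 lowest fold changes of at least 1 RPKM (here all 11), duplicated partners, and of each list the genes past 1.5-fold or otherwise the 3 with the highest mean; others were chosen after their values were seen. Minimums of RPKM and subsets of members were the alternatives tried.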

Additional observations from a re-analysis of the deposited data

How the results depend on the processing

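No paired analysis was possible because the table holds no values of single libraries of both treatments; for the same reason fits of 1 line, fits without 1 library, a cell line block and other pseudocounts were not run. The 3 members past 1.5-fold became 31 of 45 with no minimum on RPKM (14 higher, 17 lower). They became 1 with a minimum of 10 RPKM, with constant region genes only and without duplicated V segments, since fewer genes entered. The members' median of 0.35 turned to -0.10 with no minimum and to -0.028 with V segments only. It was 0.16 over the 10 members with at least 10 recovered reads, a setting chosen after seeing the data. The median of the antibody production genes, -0.014, turned to 0.0056 with a minimum of 5 RPKM. Counts of members past a p-value threshold were 0 under each minimum tried, by the authors' unadjusted p-values, by Benjamini-Hochberg adjustment and by the deposited false discovery rate. Whole reads could not be solved for 14 of 45 members, which had no single transcript with the coordinates of the table.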

Other observations

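Translocations in myeloma can place other genes under immunoglobulin control. Of 3 such genes, chosen after their values were seen, the implied SE was 1.83 for CCND1, a cyclin (126 RPKM), 1.94 for MAF, a transcription factor (59.6 RPKM), and 2.002 for FGFR3, a growth factor receptor (555 RPKM), from the authors' deposited table. Of the genes of at least 1 RPKM that are not immunoglobulin genes, 21.8% had an implied SE of at least 1.5. Translocations in the lines were not examined, and whether they bear on these implied SEs was not tested. Other genes of this kind are not shown, so the 3 values are descriptions only. AC096579.7, the gene model around IGKC, was listed by the authors at 0.084 on the log2 scale. Its implied SE was 1.94, beside 0.45 and 1.95 for IGKC.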
